A study of Drosophila melanogaster with 13 samples.

Results

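The genes described here are a fixed list of 40 Drosophila genes known for their work in the testis and in sperm, looked up by symbol in a table of read counts from male accessory gland libraries. Of the 40 symbols 39 were in the table, among 16727 genes. The missing symbol was rye, a testis TAF that the RefSeq gene table gives as a synonym of both Taf12L and nAChRalpha4, so no row was taken for it. No library was made from testis, so the link of these genes with the male germline is textbook knowledge and not a measurement of this series.

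The study concerned the secondary cells of the accessory gland, a minor epithelial cell type that adds to the seminal fluid beside the more numerous main cells. The glands came from males aged 5 to 11 days. All 13 libraries share the D1:GAL4 driver, so that what the driver switches on depends on the cells in which it is active. The ribosome immunoprecipitations (IPs, 3 libraries) were anti-GFP IPs from flies with D1:GAL4 and UAS GFP-RPL10Ab, a GFP-tagged protein of the large ribosomal subunit. The control (1 library) was an anti-GFP IP from flies with D1:GAL4 and UAS GFP, that is GFP without a ribosomal protein. The sorted cells (9 libraries) were GFP-positive cells collected by flow cytometry after protease treatment of dissected glands, 3 libraries each of D1 (D1:GAL4, UAS-GFP; iab-6cocuD1), miP (D1:GAL4, UAS-GFP; delta MSAmiP) and wild type (D1:GAL4, UAS-GFP). D1 is a mutant of the iab-6 domain of the Bithorax complex, and miP lacks the micropeptide of its iab-8 transcript. The labels name cell sorting for these libraries and immunoprecipitation for the others, so the IPs differ from wild-type sorted cells in both genotype and method, which cannot be told apart, and the control, which carries the same driver and GFP as wild type per the labels, differs from it in method. All 13 libraries are labelled as secondary cells, and the control has no replicate.

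In the fly testis, spermatocytes switch on a large set of genes before meiosis, and spermatids then build a very long tail and repack their DNA. The switch depends on the testis TAFs (can, sa, mia, nht and rye), relatives of general transcription factor subunits, and on the testis meiotic arrest complex (tMAC; aly, comr, tomb and topi). Their targets include protamines and related chromatin proteins (Mst35Ba, Mst35Bb, Mst77F), the Cys-Gly-Pro-rich sperm tail proteins of the Mst84D, Mst87F and Mst98C loci, don juan (dj), and the sperm leucyl aminopeptidases (S-Laps and loopin-1), which are abundant proteins of the sperm tail's mitochondrial derivatives. The accessory gland itself makes no sperm, but it joins the same duct as the testis and seminal vesicle.

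Library totals, in units of 1e6 counts, lay between 3.70, in the control, and 26.1. Levels are given as CPM, a gene's counts for every 1e6 counts of its library, and 1 CPM in a library is called detection. Marker genes of secondary cells (8 genes, among them CG9029, lectin-46Ca and lectin-46Cb) summed to 95574, 168147 and 144205 CPM in the IPs and 10639 CPM in the control, against 351416 to 584580.3 CPM over the sorted libraries, so the cell type of the label is least represented in the control. D1 replicate 1 and miP replicate 1 stood apart from the other replicates of their groups, with marker sums of 578542 and 571259 CPM. The counts of genes called between genotypes are therefore given with and without them, and other genotype values include them. In these bulk libraries, fewer cells of a type and less RNA per cell cannot be told apart. The 10 most abundant genes held 56.3 to 77.0% of the counts of each sorted library, 23.2 to 25.9% of each IP and 6.60% of the control, so CPM of the kinds of library are on different footings.

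Testis and sperm transcripts were abundant in the immunoprecipitated RNA and close to absent from the sorted cells. The 39 genes summed to 28255, 29392 and 28865 CPM in the 3 IPs and 49684 CPM in the control, which is 2.83, 2.94 and 2.89% of the counts of the IPs and 4.97% of those of the control. They summed to 23.5, 30.0 and 37.9 CPM in D1, 13.2, 25.9 and 24.9 CPM in miP and 18.3, 16.7 and 20.1 CPM in wild-type sorted cells. The control thus had the highest sum, the 3 IPs followed within a narrow range, and every sorted library lay far below them. All 39 genes reached 1 CPM in each IP and in the control, whereas 1 to 8 did so in a sorted library. Among the 100 most abundant genes of a library were 12, 14 and 13 of the 39 in the IPs, 15 in the control and 0 in every sorted library. S-Lap1 was the gene of rank 3 in the control, while the best rank of any of the 39 in a sorted library was 2509.

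**Figure D1:**
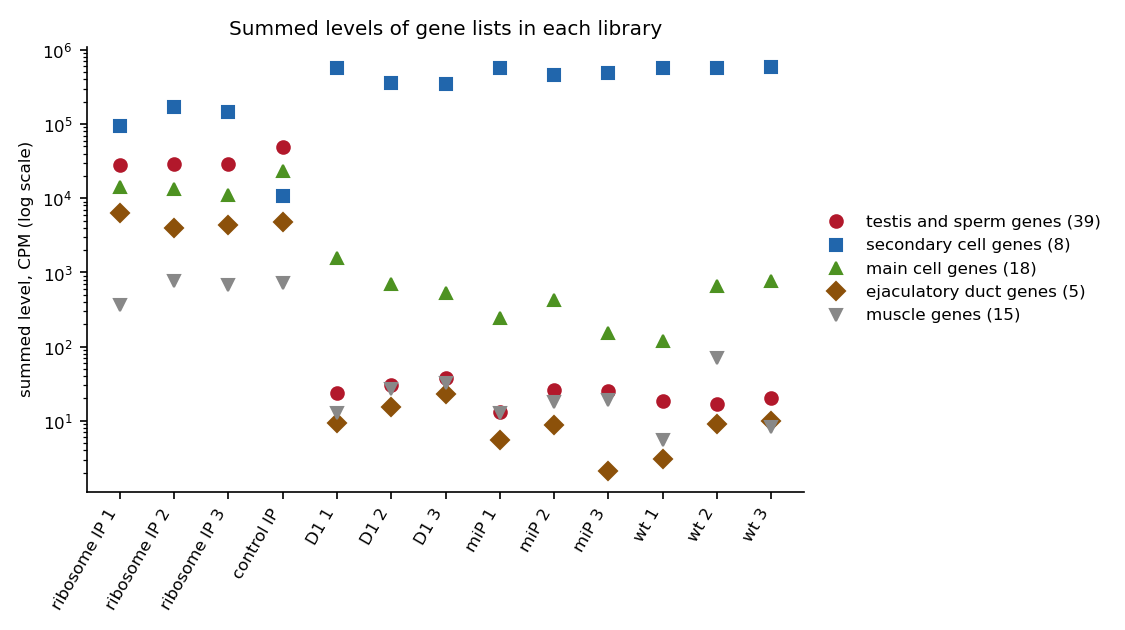
Summed CPM (vertical, log axis) of the 39 testis and sperm genes and of marker lists of 4 other cell types in each of the 13 libraries (horizontal; IPs, control, D1, miP and wild type), 1 point per list and library. The 39 genes lie at 28255 to 29392 CPM in the IPs and 49684 CPM in the control, and at 13.2 to 37.9 CPM in the sorted libraries.

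The sperm leucyl aminopeptidases took the most counts of any group. Their 8 genes summed to 13405, 13365 and 14529 CPM in the IPs and 24769 CPM in the control, against 0.659 to 7.78 CPM over the 9 sorted libraries, and held 47.4, 45.5 and 50.3% in the IPs and 49.9% in the control of the counts of the 39 genes. S-Lap1 had 3786, 3161 and 3432 CPM in the IPs and 6075 CPM in the control, and its lowest, median and highest values over the sorted libraries were 0, 0.575 and 1.87 CPM. loopin-1, a relative found in the mitochondrial derivatives of the spermatid, had 2019.9, 2314 and 2354 CPM in the IPs and 4030.1 CPM in the control, with 0.0476, 0.460 and 1.06 CPM in sorted cells. In both genes every IP lay below the control and far above every sorted library. S-Lap7 had 2304, 1940.1 and 1854 CPM in the IPs and 3498 CPM in the control (0, 0.268 and 0.661 CPM in sorted cells), and S-Lap4 had 1579, 1791 and 2379.8 CPM in the IPs and 3386 CPM in the control (0.215, 0.808 and 2.53 CPM in sorted cells). S-Lap3 gave 1215, 1497 and 1680.2 CPM in the IPs and 2440.0 CPM in the control, with 0.0549, 0.340 and 1.70 CPM in sorted cells. These 3 genes kept the same order of groups, and S-Lap4 reached its highest value in IP replicate 3 while S-Lap7 reached its highest in IP replicate 1. S-Lap2 had 1207, 1231 and 1350.0 CPM and S-Lap8 1143, 1266 and 1289 CPM in the IPs, against 2488 and 2480.3 CPM in the control, and sorted cells had at most 0.865 and 0.288 CPM. S-Lap5 was the lowest of the family, with 153, 165 and 190.1 CPM in the IPs and 372 CPM in the control. The S-Laps are close relatives of each other, and reads shared between copies make the level of each an uncertain value, which touches the single genes more than their sum.

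The Cys-Gly-Pro family, small proteins of the sperm tail, came next. Its 7 genes (Mst84Da, Mst84Db, Mst84Dc, Mst84Dd, Mst87F, Mst98Ca and Mst98Cb) summed to 7647, 8057 and 6944 CPM in the IPs and 11242 CPM in the control, against 0.0469 to 2.31 CPM in sorted libraries, and held 27.1, 27.4 and 24.1% in the IPs and 22.6% in the control of the counts of the 39. Mst87F had 2512, 2202 and 1814 CPM in the IPs, 2600.0 CPM in the control and 0, 0.103 and 0.708 CPM (lowest, median, highest) in sorted cells. Mst84Dc had 1407, 1596 and 1412 CPM in the IPs, 2198 CPM in the control and 0, 0.0538 and 0.432 CPM in sorted cells. Mst98Ca had 1453, 1384 and 1204 CPM in the IPs, 2053 CPM in the control and 0, 0.108 and 0.378 CPM in sorted cells. The IP closest to the control was replicate 1 for Mst87F and Mst98Ca and replicate 2 for Mst84Dc, and none reached it. Of the other 4 genes Mst84Da was the lowest, at 112, 105 and 83.8 CPM in the IPs and 166 CPM in the control. Its exons overlap those of MstProx on the opposite strand over 75.1% of their length, and these libraries do not keep strand, so its reads cannot be assigned to either gene with certainty. Members of the Mst84D and Mst98C clusters may also share reads with each other.

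Don juan (dj), a basic protein of spermatid nuclei and mitochondrial derivatives, had 1462, 1222 and 1092 CPM in the IPs, 2283 CPM in the control and 0, 0.108 and 0.472 CPM (lowest, median, highest) in sorted cells. Its relative djl was lower, at 321, 343 and 244 CPM in the IPs and 578 CPM in the control. Of the janus family, ocnus (ocn), a testis protein, had 1941, 2188 and 1884 CPM in the IPs, 3576 CPM in the control and 0, 0.0549 and 0.652 CPM in sorted cells. Its neighbour janB had 493, 477 and 379 CPM in the IPs and 617 CPM in the control, and 18.8% of its exonic length overlaps janA on the same strand. Both families thus followed the S-Laps in the order of the groups. The 3 chromatin genes summed to 1311, 1954 and 1802 CPM in the IPs and 3073 CPM in the control, against 0.0476 to 1.98 CPM in sorted libraries. Mst77F, a linker-histone-like protein of the sperm nucleus, had 717, 1015 and 873 CPM in the IPs and 1518 CPM in the control. The protamine genes Mst35Ba and Mst35Bb had 259, 369.9 and 349 CPM and 335, 569 and 579 CPM in the IPs, against 618 and 936 CPM in the control. IP replicate 1 was the lowest of the IPs for each of the 3 chromatin genes. The protamines are near-identical neighbours, so the split between them is uncertain.

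Regulators of the germline programme were detected at much lower levels. The 4 testis TAFs summed to 72.8, 62.3 and 82.6 CPM in the IPs and 98.3 CPM in the control, and the 4 tMAC genes to 37.9, 60.5 and 53.1 CPM in the IPs and 98.3 CPM in the control. Sorted libraries had 0.238 to 2.06 CPM of the TAFs and 0.0480 to 1.08 CPM of tMAC. Within the TAFs sa was the highest, with 38.7, 34.9 and 37.9 CPM in the IPs and 45.4 CPM in the control, and can was the one gene of the 39 for which all 3 IPs (9.13, 7.20 and 11.7 CPM) lay above the control (6.48 CPM, exact 95% interval 4.15 to 9.65 for counting error). Among the tMAC genes topi, a zinc-finger protein, had 18.4, 41.9 and 33.9 CPM in the IPs and 68.6 CPM in the control, and comr, the lowest of all 39, had 2.68, 3.64 and 3.44 CPM in the IPs and 4.32 CPM in the control. The exons of tomb overlap those of Cap-D3 on the opposite strand over 11.7% of their length, so reads there cannot be assigned with certainty. The row Taf12L had 12.97, 7.85 and 6.36 CPM in the IPs and 9.46 CPM in the control, but whether it is rye was not settled here. The 4 genes of meiosis and mitochondria summed to 870.1, 949 and 1063 CPM in the IPs and 1849.7 CPM in the control. Boule (bol), an RNA-binding protein needed for entry into meiosis, had 214, 192 and 193 CPM in the IPs and 353 CPM in the control, and twine (twe), the Cdc25 phosphatase of meiosis, had 56.4, 70.6 and 80.9 CPM in the IPs and 87.3 CPM in the control. Fuzzy onions (fzo), the mitofusin of spermatids, had 53.0, 88.4 and 114 CPM in the IPs and 167 CPM in the control, and Hsp60B, a chaperonin needed for sperm individualisation, had 547, 598 and 674 CPM in the IPs and 1242 CPM in the control. Milkah (mil), a nucleosome assembly protein relative, had 301, 285 and 352 CPM in the IPs and 684 CPM in the control, and the chitinase-family gene Cht12 had 168, 216 and 221 CPM in the IPs and 413 CPM in the control. Mst36Fa and Mst36Fb summed to 196, 194 and 205 CPM in the IPs and 377 CPM in the control. Gonadal (gdl) had 27.5, 18.9 and 14.4 CPM in the IPs and 26.2 CPM in the control, and 82.1% of its exonic length is shared with gdl-ORF39.

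**Figure D2:**
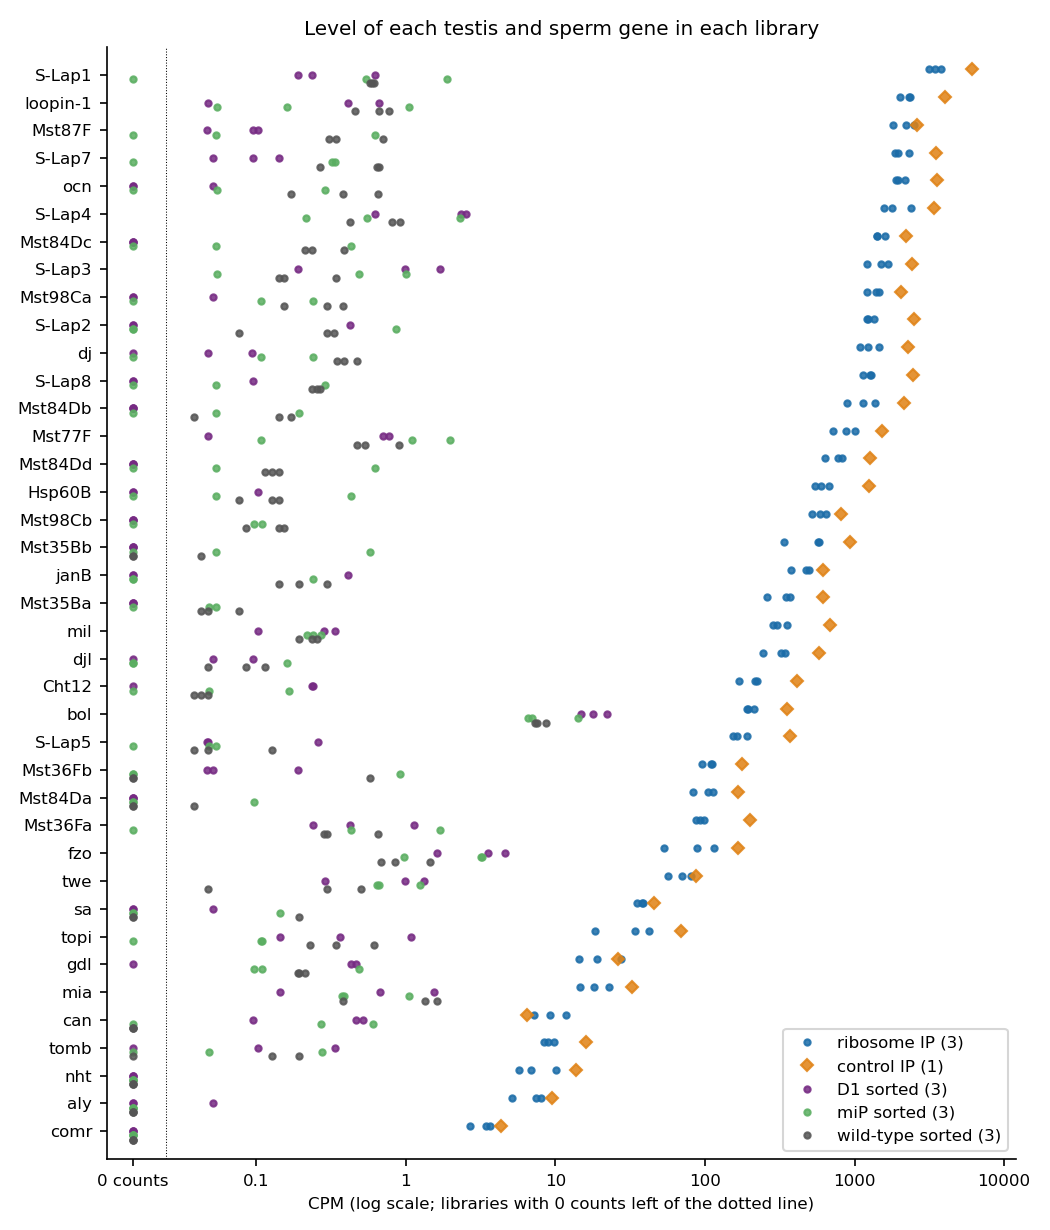
CPM (log axis) of each of the 39 genes in each library, 1 row per gene in the order of mean IP level, with points for IPs, control, D1, miP and wild-type libraries and libraries with 0 counts at the left edge. Every gene has its IP and control points right of all its sorted points, and bol has the highest sorted values, up to 22.2 CPM.

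Levels of different genes were compared per kilobase of exon. In the IPs Mst84Dc was the highest at 4054 CPM per kb, followed by Mst87F at 3493, ocn at 3238, Mst84Db at 2716, Mst84Dd at 1798 and S-Lap1 at 1631 CPM per kb. At the other end stood mia at 7.14, can at 3.16, aly at 3.01 and comr at 1.64 CPM per kb. Short genes of the Cys-Gly-Pro family and ocn thus led once length was taken into account, and 4 regulators closed the order. Mst84Da of the same family, whose reads cannot be assigned with certainty, stood at rank 21 with 281 CPM per kb. Mst84Dc and Mst87F, neighbours in this order, had overlapping SD ranges in the IPs (4054 ± 296 and 3493 ± 562 CPM per kb, mean ± SD, n = 3). The same holds for can and aly (3.16 ± 0.764 and 3.01 ± 0.659 CPM per kb).

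Set against wild-type sorted cells, all 39 genes were higher in the IPs. In edgeR's quasi-likelihood test, adjusted by Benjamini-Hochberg over 11621 genes, 39 of 39 passed 0.05 as higher and 0 as lower, where 49.1% of all genes tested passed as higher and 31.5% as lower. Most of the 39 had too few counts in sorted cells to be tested there, so they passed the filter on low counts only through the IPs. For these genes higher was the only open outcome, and the count of 39 describes levels and adds no further support. The median log2 difference of the 39 was 10.06, against 0.76 over all genes tested. With scaling by library total alone the values were 11.61 and 2.33, so relative to the median of all genes the 39 stood 9.30 or 9.28 log2 units higher with TMM scaling or with library totals alone. The 39 adjusted p-values of edgeR lay between 5.13e-08 and 0.00128. For S-Lap1 the fitted difference was log2 10.94 ± 0.30 (SE; edgeR adjusted p = 5.13e-08), for Mst87F log2 10.69 ± 0.44 (adjusted p = 9.73e-08) and for ocn log2 10.68 ± 0.51 (adjusted p = 1.98e-07). For bol it was log2 3.11 ± 0.19 (edgeR adjusted p = 1.01e-06) and for mia log2 2.47 ± 0.48 (adjusted p = 0.00128), the smallest of the 39.

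Pooled counts scaled by library totals gave larger folds than the TMM-scaled fit, in which S-Lap1 was 1963-fold, bol 8.62-fold and mia 5.54-fold higher. By pooled counts S-Lap1 was 5722-fold (95% interval 4233 to 7939) and Mst84Dc 5272-fold (95% interval 3413 to 8631) higher in the pooled IPs than in pooled wild-type cells. Here and below such intervals cover counting error alone. On this scale differences over 1000-fold were found for 25 of the 39 genes, with a median of 3109.7-fold, and the smallest were 15.9-fold for mia and 25.1-fold for bol. No count was seen in the 3 wild-type libraries for can, nht, aly and comr. Against a floor of 3 counts over the group, can was at least 217-fold higher in the IPs, nht at least 177-fold, aly at least 155-fold and comr at least 79.2-fold. Mst35Bb and Mst84Da had 1 wild-type count each and Cht12 had 3, with pooled folds of 36829 (95% interval 6609 to 1454709), 7033 (95% interval 1262 to 277829) and 4889 (1672 to 23711). The fitted median with the 4 genes at 0 set to their bounds was again 10.06. Over all 9 sorted libraries, every IP exceeded every sorted library in 39 of 39 genes, where 46.7% of all genes with counts did so.

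The control, which shares its wild-type reference with that comparison, also had all 39 genes higher than wild-type sorted cells. In an edgeR fit of IPs, control and wild type, which lends the single control the spread of the replicated groups, 39 of 39 passed as higher (background 37.7% of 13165 genes) and 0 as lower (background 27.9%). Here too most of the 39 genes passed the filter only through the IPs and the control, so for them higher was the only open outcome. The median log2 difference of the 39 was 10.48, against 0.33 over all genes tested. For S-Lap1 it was log2 11.32 ± 0.33 (SE; edgeR adjusted p = 8.77e-08) and for bol log2 3.50 ± 0.24 (edgeR adjusted p = 2.38e-06). The transcripts were thus measured at high levels in immunoprecipitates with the tagged ribosomal protein and without it.

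The IPs and the control were compared to ask which transcripts the tagged ribosomes hold beyond what plain GFP brings down. None of the 39 genes passed 0.05 in either direction by edgeR, where 3.25% of 12723 genes passed as higher and 0.267% as lower. At an unadjusted p under 0.05 edgeR gave 6 of 39 genes, no larger a share than the 2565 of 12723 genes tested. DESeq2 called 0 of the 39 after adjustment. The smallest adjusted p was 0.134 (edgeR). Without IP replicate 1, edgeR called 2 genes as lower than in the control, S-Lap5 (adjusted p = 0.0434) and mil (adjusted p = 0.0324). The fitted log2 difference was below 0 for 34 genes and above 0 for 5, with a median of -0.43 against 0.11 over all genes tested. With library totals alone the median was -0.82 against -0.27, so that relative to all genes the 39 stood at -0.54 and -0.55. Values ran between log2 -0.75 ± 0.23 (SE) for S-Lap5 and log2 0.91 ± 0.51 (SE) for can. In CPM all 3 IPs lay below the control in 37 of 39 genes, where this held for 43.8% of all genes. The exceptions were can, with all 3 IPs above (25.0% of all genes), and gdl, with 1 IP above. The ratio of mean IP to control CPM ran between 0.455 and 1.44 with a median of 0.566. With 1 control library, the spread between controls was not measured, and the fit takes that of the IPs.

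Markers of the cells under study moved the other way. Of the 8 secondary cell genes 4 (CG9029, CG17575, lectin-46Ca and iab-8) passed as higher in the IPs than in the control and 0 as lower (edgeR; background 3.25% and 0.267%). Their median log2 difference was 3.80. All 8 were lower in the IPs than in wild-type sorted cells (background 31.5%). CG9029 had 75962, 112363 and 89816 CPM in the IPs, against 5937 CPM in the control, and lectin-46Ca had 7775, 21983 and 18879 CPM, against 1493 CPM.

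**Figure D3:**
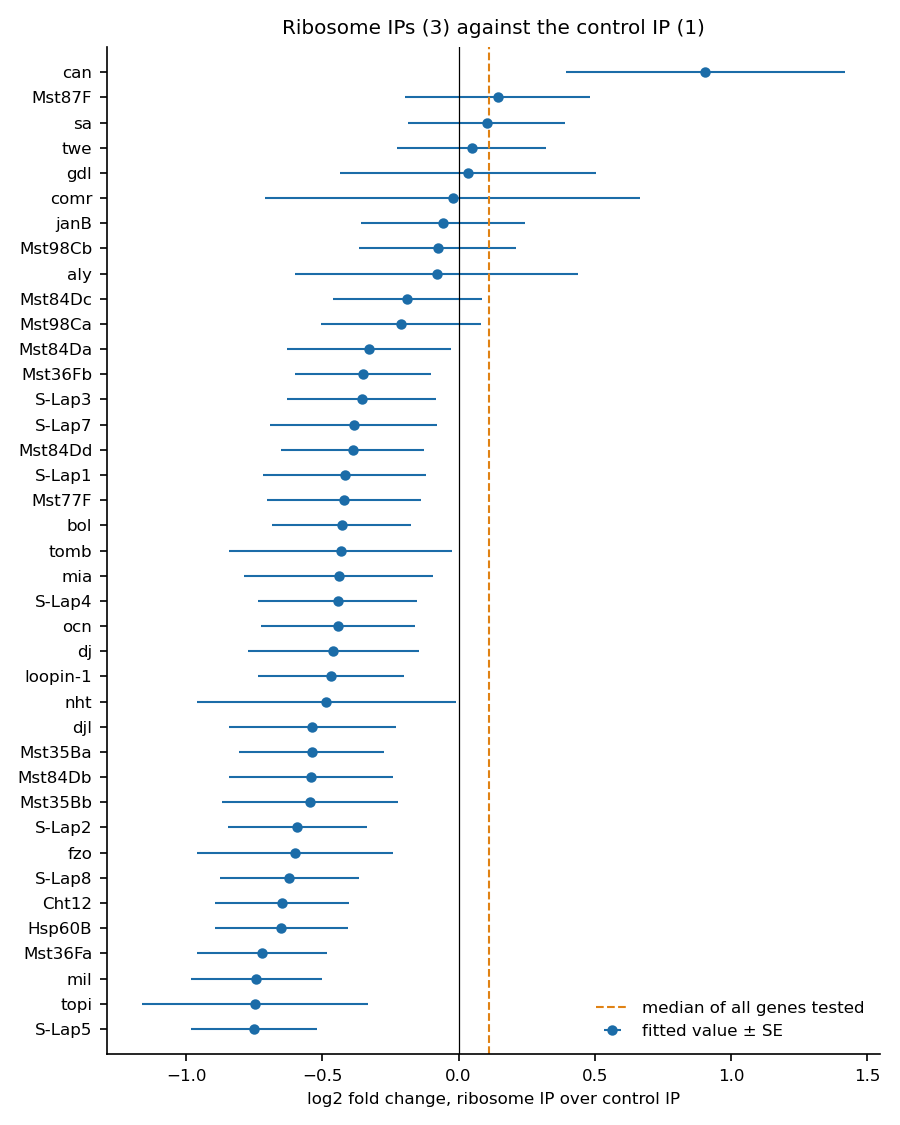
Fitted log2 fold change of the 3 IPs over the control (horizontal; points with SE bars from edgeR) for each of the 39 genes (vertical, in order of value), with a solid line at 0 and a dashed line at the median of all genes tested, 0.11. The 39 genes run between -0.75 for S-Lap5 and 0.91 for can, and 34 lie left of 0.

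The mixture of the 39 transcripts was similar in IPs and control, with shifts in some groups. The Cys-Gly-Pro family (27.1, 27.4 and 24.1% in the IPs, 22.6% in the control) and the testis TAFs had a higher share in every IP than in the control. The genes of meiosis and mitochondria (3.08, 3.23 and 3.68%, against 3.72%) had a lower share in every IP. So did Mst36Fa with Mst36Fb, and gdl with mil and Cht12. Other groups had IPs on both sides of the control. The janus family held 8.62, 9.07 and 7.84% in the IPs and 8.44% in the control of the counts of the 39, the chromatin genes 4.64, 6.65 and 6.24% in the IPs and 6.18% in the control, and the don juan family 6.31, 5.32 and 4.63% in the IPs and 5.76% in the control. Across the 39 genes Pearson's r of log2 CPM was 0.989 to 0.995 between IPs and 0.987 to 0.995 between an IP and the control, a description across genes that share their libraries. The wide range of levels among the genes keeps r high, so r does not exclude such shifts. The coefficient of variation over the 3 IPs had a median of 14.4% and ran from 5.52% to 38.0%. The widest gene was topi, at 18.4, 41.9 and 33.9 CPM in IPs 1, 2 and 3. gdl and fzo also moved between IPs, gdl being highest in replicate 1 and fzo highest in replicate 3.

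In every sorted library bol had the most counts of the 39 genes. It held 25.2 to 76.1% of their counts in a sorted library, against 0.654 to 0.756% in the IPs and the control, and it was the 1 gene of the 39 to reach 1 CPM in all 9 sorted libraries. It had 17.9, 14.9 and 22.2 CPM in D1, 6.93, 6.53 and 14.1 CPM in miP and 7.32, 7.51 and 8.62 CPM in wild type, so in CPM every D1 library lay above every miP and every wild-type library. With TMM scaling, which the tests use, the groups overlapped, at 19.8, 9.78 and 14.1 normalised CPM in D1, 8.70, 6.47 and 13.3 in miP and 8.80, 9.23 and 10.8 in wild type. fzo, the next in the order of means, had 1.62, 3.56 and 4.60 CPM in D1, 0.968, 3.22 and 3.19 CPM in miP and 0.681, 0.850 and 1.46 CPM in wild type, with D1 above wild type in CPM and miP overlapping both. With TMM scaling D1 replicate 1 (1.79 normalised CPM) and wild-type replicate 3 (1.83 normalised CPM) overlapped. S-Lap4 had 0.619, 2.53 and 2.34 CPM in D1, 0.215, 2.31 and 0.549 CPM in miP and 0.808, 0.425 and 0.920 CPM in wild type. mia had 0.143, 0.670 and 1.55 CPM in D1, 0.376, 0.384 and 1.04 CPM in miP and 1.62, 0.378 and 1.34 CPM in wild type. Mst77F had 0.0476, 0.774 and 0.703 CPM in D1, 0.108, 1.10 and 1.98 CPM in miP and 0.893, 0.472 and 0.537 CPM in wild type. In these 3 genes the groups overlapped. twe had 0.286, 0.980 and 1.31 CPM in D1, 0.645, 1.25 and 0.659 CPM in miP and 0.298, 0.0472 and 0.498 CPM in wild type, with miP above wild type in CPM. With TMM scaling miP replicate 3 and wild-type replicate 3 were level, at 0.624 and 0.625 normalised CPM.

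The rest lay near the floor of detection. Of the 39 genes 28 never reached 1 CPM in a sorted library, and nht and comr had 0 counts in all 9. Over these libraries a total of 0 counts allows up to 0.0158 CPM (3 counts of the summed totals). Such low values cannot show whether a gene is expressed at a low level in sorted cells, and the source of the few counts was not tested. miP replicate 2 held most of the miP counts of some groups: of the Cys-Gly-Pro family miP had 6, 48 and 2 counts, and of the S-Laps 34, 162 and 12. Its library total did not stand out, and the sum of the 39 genes was 25.9 CPM there.

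Between the sorted genotypes no gene of the 39 was called. In the fit of the 9 sorted libraries 10 of the 39 had enough counts to be tested (Mst77F, Mst36Fa, S-Lap1, S-Lap3, S-Lap4, loopin-1, mia, bol, twe and fzo), and 29 did not. For D1 against wild type edgeR called 0 of 10, with background shares of 6.14% higher and 3.62% lower over 8222 genes. For miP against wild type it called 0 (background 0.0243% higher and 0.0608% lower), and for D1 against miP 0 (background 6.74% higher and 3.81% lower). At an unadjusted p under 0.05 edgeR gave 0 in each of the 3 comparisons, where 1848, 292 and 2030 of 8222 genes were under it. DESeq2 called 0 of the 39 in each. Without replicate 1 of both mutants the calls were again 0. For bol the fitted difference of D1 from wild type was log2 0.59 ± 0.34 (SE; 95% interval -0.07 to 1.25; edgeR adjusted p = 0.345), which does not show the genotypes to be alike. With scaling by library totals alone it was log2 1.23 ± 0.34 (SE; edgeR adjusted p = 0.0334), so that this call depends on the scaling. For fzo the difference was log2 0.93 ± 0.51 in D1 (edgeR adjusted p = 0.330) and log2 1.01 ± 0.51 in miP (edgeR adjusted p = 0.940), both against wild type.

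Outside that test, D1 libraries held fewer reads of several sperm tail genes than wild-type libraries did. The 8 S-Laps together did not show this, with 27, 108 and 103 counts in D1 against 90, 66 and 72 in wild type. All 3 D1 libraries lay below all 3 wild-type libraries in CPM for 11 of the 37 genes with counts in these groups, where 3.08% of all genes did so. These 11 genes were Mst35Ba, Mst84Db, Mst84Dc, Mst84Dd, Mst87F, Mst98Ca, Mst98Cb, dj, S-Lap7, S-Lap8 and ocn, none of which had enough counts for the test above. The 3 genes with D1 above wild type throughout in CPM were can, bol and fzo (background 24.2%), of which bol and fzo overlapped with TMM scaling. As counts, the 7 Cys-Gly-Pro genes together had 2, 3 and 1 in D1 and 6, 48 and 2 in miP, against 29, 37 and 31 in wild type. In miP replicates 1 and 3 these genes were thus low as well, so low values were not confined to D1. The difference rests on at most 37 reads per wild-type library, in sorted libraries whose totals were 18.2 to 26.1 in units of 1e6 counts, and D1 replicate 1 lies between the other D1 libraries. An edgeR fit of the same libraries without a filter on low counts called 0 of 37 genes, with a smallest adjusted p of 0.0852, and 10 at an unadjusted p under 0.05, 9 of them lower in D1. The share of all genes under 0.05 in that fit is not given here, so no result is read from the 10. In the filtered fit it was 1848 of 8222 genes. In the fit of the sorted libraries without miP replicate 3, S-Lap7 had enough counts to be tested and was called as lower in D1 (edgeR adjusted p = 0.0486). Of its 55 counts in sorted libraries 36 were in wild type, the group through which it could pass the filter. This call thus supports no difference of D1. For miP the libraries did not overlap wild type in 3 of 36 genes, twe above (background 7.25%) and dj and topi below (background 3.66%), and between D1 and miP in bol and topi, both higher in D1 (background 18.8%), where bol again overlapped with TMM scaling.

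**Figure D4:**
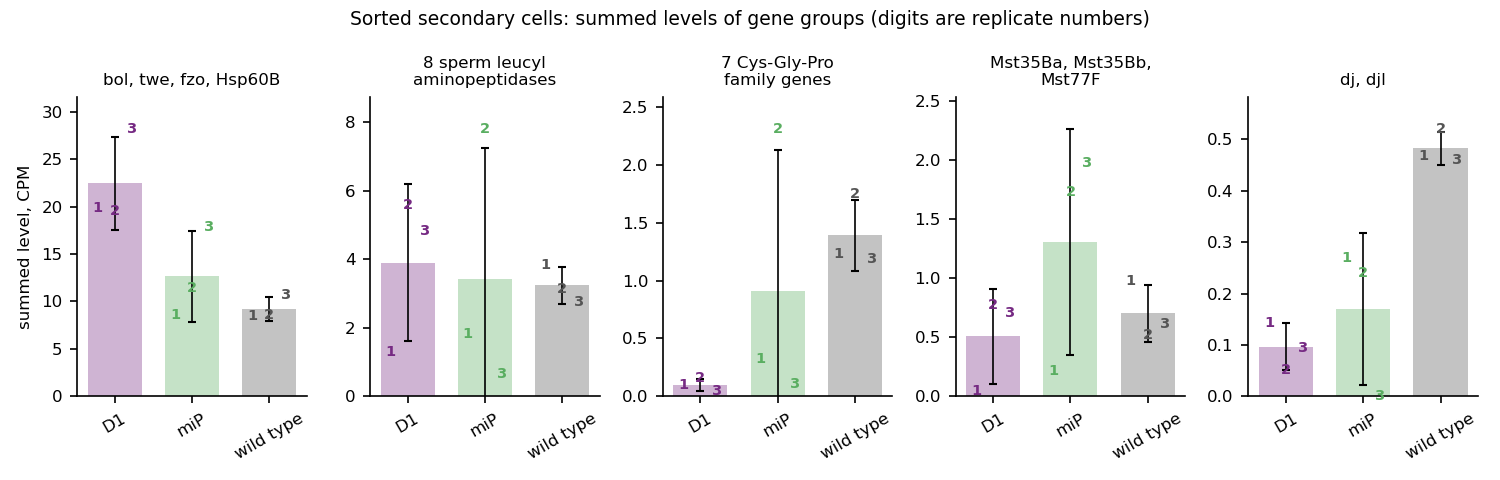
Summed CPM of groups of the testis and sperm genes in the sorted libraries (D1, miP and wild type, left to right), with bars for means, error bars for SD (cut off at 0) and digits for single libraries by replicate number. For the 7 Cys-Gly-Pro genes the 3 D1 libraries lie at 0.0469 to 0.155 CPM and the wild-type libraries at 1.19 to 1.75 CPM, while miP replicate 2 stands at 2.31 CPM.

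Other genes of the male germline, listed separately, were also mostly higher in the IPs than in wild-type sorted cells, where 49.1% of all genes passed as higher. Those with few or no counts in sorted cells entered the test only through the IPs, so for them higher was the only open outcome. Of 5 further sperm chromatin genes 5 of 5 tested were higher in the IPs than in wild-type cells (edgeR), and their sum was 1624, 1691 and 1637 CPM in the IPs and 2460.0 CPM in the control, against 0.191 to 1.15 CPM in sorted libraries. Of the cup and comet genes, transcribed after meiosis, 15 of 15 tested were higher, with 1335, 1579.6 and 2249.6 CPM in the IPs, 2407 CPM in the control and 9.97 to 36.2 CPM in sorted libraries. Among them soti had 201, 286 and 345 CPM in the IPs and 436 CPM in the control. Y-linked genes of male fertility were higher in 9 of 9 tested, at 75.5, 59.3 and 97.9 CPM in the IPs and 84.6 CPM in the control, and all 9 sorted libraries had at most 0.240 CPM. Their fitted median against the control was log2 0.43, with 7 of 10 above 0, unlike the -0.43 of the 39 genes, and 0 were called. kl-5, a dynein heavy chain of the sperm tail, had 11.7, 11.5 and 24.0 CPM in the IPs and 13.5 CPM in the control, and 0 counts in every sorted library. These flies are males, so the Y chromosome is present in every cell of all groups. Of 16 sperm tail and other male germline genes 15 were higher and 1, Mst85C, was lower. They summed to 2710, 2769 and 3176 CPM in the IPs and 4186 CPM in the control. Sorted libraries had 49.7 to 112.5 CPM of them, more than the 13.2 to 37.9 CPM of the 39 genes. Of these genes betaTub85D, the testis beta-tubulin, had 840.2, 667 and 1183 CPM in the IPs and 1316 CPM in the control.

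Lists for earlier stages and for somatic cells of the testis had lower sums. Early germline genes (vas, nos, bam, bgcn, zpg, aub, AGO3, tej, tut and kmg) were higher in the IPs in 5 of 8 tested (background 49.1%) and lower in 1, tej (background 31.5%), with sums of 52.5, 75.1 and 92.2 CPM in the IPs, 139 CPM in the control and 5.64 to 18.6 CPM in sorted libraries. bgcn had 21.5, 23.7 and 24.0 CPM in the IPs and 34.6 CPM in the control. Partners of tMAC (achi, vis, wuc and mip40) were higher in 4 of 4, with 88.1, 90.8 and 107 CPM in the IPs and 130.5 CPM in the control, against 13.1 to 21.4 CPM in sorted libraries. Cyst and hub genes (tj, eya, zfh1 and piwi) were higher in 3 of 3 tested, at 25.7, 20.7 and 32.9 CPM in the IPs and 45.9 CPM in the control, against 0.361 to 1.92 CPM. Between IPs and control edgeR called 0 genes of any of these 7 lists, and DESeq2 called 0 as well. At an unadjusted p under 0.05 edgeR gave 3 genes of these lists, where 2565 of 12723 genes tested were under it.

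Markers of other cell types were read against the same background, 49.1% of all genes higher and 31.5% lower than in wild-type cells, and 3.25% higher and 0.267% lower than in the control. Main cell genes such as SP and Acp62F were higher in the IPs than in wild-type cells in 15 of 17 tested and lower in 0, with sums of 14174, 13177 and 11089 CPM in the IPs and 23621 CPM in the control, against 118 to 1553 CPM in sorted libraries. Against the control 0 of them were higher and 1, Acp29AB, was lower. Ejaculatory duct genes (Dup99B, Est-6 and others) were higher than in wild-type cells in 5 of 5, at 6352, 3914 and 4399 CPM in the IPs and 4771 CPM in the control, against 2.09 to 22.8 CPM in sorted libraries, and lower than in the control in 2, Est-6 and Gld. Ejaculatory bulb genes (Peb, PebII and PebIII) were higher in 3 of 3, at 732, 1171 and 875 CPM in the IPs and 3811 CPM in the control, against 0.0549 to 4.85 CPM. Peb itself had 40.9, 409.8 and 148 CPM in the IPs and 2381 CPM in the control, with IP 1 the lowest and IP 2 the highest of the IPs. Muscle genes passed as higher in 4 of 13 tested, a smaller share than over all genes. Their fitted log2 difference was nonetheless above 0 in all 13, with a median of 2.22 against 0.76 over all genes and a median SE of 1.13. They summed to 367, 768 and 679 CPM in the IPs and 713 CPM in the control. Sorted libraries had 5.44 to 69.6 CPM, the highest in wild-type replicate 2. Fat body and haemocyte genes were higher in 3 of 3, at 80.5, 72.1 and 69.5 CPM in the IPs and 81.9 CPM in the control, against at most 2.53 CPM in sorted libraries, with He and eater at or near 0. Neuronal genes were higher in 1 (brp) and lower in 2 (Syn and elav) of 5 tested, at 123, 90.2 and 105 CPM in the IPs and 42.4 CPM in the control, against 53.4 to 212 CPM in sorted libraries, so the IPs lay within the sorted range and the control below it. The part of any of these tissues in the levels of the testis and sperm genes was not tested.

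By position the 39 genes lay on the autosomes alone: 8 on 2L, 6 on 2R, 10 on 3L and 15 on 3R, and 0 on X, Y and 4 (dm6). Of all genes with a position 15.3% are on X and 23.4% on 3R. Exonic length had a median of 1558 nt, against 1492 nt for all genes. Several sit side by side with a relative. S-Lap1 lies on 3L (8617235 to 8619474, plus strand) beside S-Lap2 on 3L (8619888 to 8622091, plus strand), and the protamine gene Mst35Ba on 2L (14879050 to 14881652, minus strand) beside Mst35Bb on 2L (14882101 to 14883721, minus strand). Mst84Dc lies on 3R (7364254 to 7364673, minus strand) and Mst84Db on 3R (7365160 to 7365627, minus strand). On the same arm dj lies at 3R (7059315 to 7060524, plus strand) with djl at 3R (7060767 to 7061919, plus strand), and ocn at 3R (30037003 to 30037730, minus strand) with janB at 3R (30037984 to 30038728, minus strand). Gene bol spans 3L (9097629 to 9134405, minus strand), and fzo lies on 3R (23201644 to 23204034, minus strand). These neighbours all reached high levels in the IPs, but within a pair the levels per kilobase differed, as between dj (1040.1 ± 155) and djl (275 ± 47.4 CPM per kb, mean ± SD, n = 3). The list was chosen by function, and no test was made of its positions.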

How the data were processed

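The deposited table holds read counts per gene. The authors used STAR and HTSeq with the dm6 genome for these counts, per the submitters' processing notes, and the versions of these tools were not given in the sources used here. Per the labels' protocols, 2 ng of RNA went into each library, cDNA was primed with poly(dT) (SMARTer), tagmentation (Nextera XT) kept no strand, and reads were single and 100 nt long. The labels describe 3 biological replicates per genotype. Of the columns 0 were left unassigned.

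The 39 genes were matched by symbol and placed with Ensembl release 115, 37 by the same symbol and 2 by a synonym. Every test used edgeR 4.0.16 in R 4.3.3 (quasi-likelihood F-test, TMM factors, filterByExpr) over all genes, with Benjamini-Hochberg adjustment at 0.05. IPs were fitted with wild type, IPs with the control, all 3 together for control against wild type, and the 9 sorted libraries together. The SE is the absolute log2 difference divided by the square root of F. Alternatives were DESeq2 1.42.0, RLE factors, library totals alone, no filter, 1 CPM in at least 2 libraries, all 13 libraries in a single fit, only the 2 groups compared, leaving out each library, leaving out replicate 1 of both mutants, and the replicate number as a block. Intervals are exact (Clopper-Pearson or Poisson) at 95%. Reads carry no molecular barcodes, so intervals and floors cover counting error only. Values of each library are printed for the 12 genes highest in the IPs and the 6 highest in sorted cells, and others are given by role. Genes, lists and tests were chosen with earlier results of these data known. Python 3.11.15 with pandas 2.3.3, numpy 2.4.6, scipy 1.17.1 and matplotlib 3.10.9 prepared tables and figures, and the fits were tested on simulated counts.

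As a check of pairing by replicate number, the deviations of same-numbered libraries from their group means were correlated. Between D1 and miP these correlations were 0.432, 0.169 and 0.312, each over 0.1. D1 replicate 2, however, correlated more closely with a miP library of another number. Whether the numbers pair these groups is thus not settled, and the labels do not state it. The main tests used no replicate block, which was run as an alternative.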

Additional observations from a re-analysis of the deposited data

How the results depend on the processing

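The counts of genes called were 39 of 39 higher for the IPs and for the control against wild-type sorted cells under every alternative run. The 17 genes named with values in each library kept direction and call in these comparisons in 425 of 425 refits (edgeR or DESeq2). Several of these genes passed the filter on low counts only through the IPs or the control, and for them this agreement adds no support. For the IPs against the control the count was 0 under the other alternatives and 0 to 2 when single libraries were left out. Without IP replicate 1 edgeR called 2 genes lower, S-Lap5 (log2 -0.73, adjusted p = 0.0434) and mil (log2 -0.77, adjusted p = 0.0324). For D1 against wild type the count of 0 became 1 with library totals alone (bol, higher), 6 in the fit of all 13 libraries and 0 to 1 when single libraries were left out. The 1 was S-Lap7, lower, without miP replicate 3 (log2 -2.98, edgeR adjusted p = 0.0486). S-Lap7 had 36 of its 55 sorted counts in wild type, the group through which it could pass the filter. Its call thus supports no difference of D1. The 6 genes entered the fit of all 13 libraries through the IPs and the control, where they are abundant, and the sorted libraries fitted without a filter called 0 (smallest edgeR adjusted p = 0.0852), so the 6 calls support no difference of D1. The cause of the other changes was not tested. For miP against wild type and D1 against miP the count was 0 throughout. With the replicate block the counts were 39 for the IPs against wild type and 0 for each comparison of sorted genotypes, D1 against miP included, so the block changed no call. Same-numbered correlations were -0.0086, 0.0495 and -0.0673 for the IPs and wild type, -0.218, -0.0338 and -0.221 for D1 and wild type, and 0.0065, 0.250 and -0.226 for miP and wild type. No paired analysis was possible because the control is a single library, for the 2 comparisons that hold it. Detection in all libraries of a group at 1 CPM gave 2 genes in D1, 1 in miP and 1 in wild type. At 3 or more counts in place of 1 CPM it gave 9, 6 and 21, so the number detected in sorted cells depends on the threshold. With the 10 most abundant genes of each library left out of its total, the mean sums of the 39 genes were 38107 CPM in the IPs, 53195 CPM in the control, 81.4 CPM in D1, 75.7 CPM in miP and 77.8 CPM in wild type. In the sorted comparisons 29 of the 39 genes had too few counts to be tested.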
